A study of Homo sapiens with 4 samples.

Results

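The circular RNAs (circRNAs) described here come from genes that move, eject or chemically mark nucleosomes. A circRNA forms when a downstream splice site is joined to an upstream one (backsplicing), and it is counted from reads across that joint. Circles were taken by the symbol of their host gene: all hosts named SMARCA to SMARCE, CHD, ARID, BAZ, HDAC, KAT, ACTL or CHAF1 with any suffix, ACTR5 and ACTR8, and INO80, INO80D, EP400, EP300, CREBBP, SRCAP, BPTF, ATRX, PBRM1, RSF1, SUPT16H, ANP32E and HELLS. SMARCA5 and the katanin genes (KATN) were left out. This rule took 838 of the 45182 deposited circles, from 69 of 8230 host genes. Of these, 835 lay inside the RefSeq span of their host gene on GRCh38. One host, HDAC2-AS2, matched the rule through its prefix alone and is an antisense RNA. It gave 1 circle, with 2 and 2 reads in the DIS3 KD libraries and 0 and 0 in the control libraries.

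Remodelers are ATP-driven enzymes that slide, evict or exchange nucleosomes, and they fall into the SWI/SNF, CHD, ISWI and INO80 families. Acetyltransferases loosen the grip of histone tails on DNA by acetylating lysines, deacetylases remove those marks, and bromodomain proteins read them. Histone chaperones hand histones to DNA during replication and transcription. The genes are long, with many exons, and several are known circRNA hosts.

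The circles were measured in Flp-In T-REx 293, an embryonic kidney line of human origin that carries a docking site for transgenes. In 2 libraries, from DIS3 KD clone 8, the endogenous DIS3 gene had been disrupted with CRISPR/Cas9, and in the other 2, the control libraries, it had not. Both groups carried an integrated, inducible Flag-HA DIS3 transgene, and none of the 4 libraries had doxycycline, going by the column names. The submitters' design text calls the clone a knockdown because uninduced cells keep some DIS3, which could not be checked here. DIS3 is a ribonuclease and a catalytic subunit of the RNA exosome. The KD group is a single clone, so its own history and the loss of DIS3 cannot be told apart. The libraries were labelled as biological replicates. In bulk RNA, fewer cells holding a circle and fewer copies of it per cell cannot be told apart.

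Depth differed strongly between the libraries. There were 352471 and 121507 backsplice reads in DIS3 KD replicates 1 and 2, against 48895 and 55193 in control replicates 1 and 2. Mapped sequence came to 165 and 47.9 gigabases in the KD libraries, against 19.6 and 20.4 gigabases in the controls. Levels are given as FPBcirc, backsplice fragments per mapped gigabase, in which 1 read was worth 0.00604 and 0.0209 in the KD libraries and 0.0511 and 0.0489 in the control libraries. The targeted gene could not check the labels: its 2 circles had 7 and 2 reads in the KD libraries and 0 and 0 in the controls, and its linear signal is known only where a circle was read. Of 8 marker genes of the line, PAX2 and VIM hosted 5 circles, with 11 and 1 reads in the KD libraries and none in the controls, and none of 10 markers of other cell types hosted a circle, so identity could not be read from circles.

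The remodeler and acetylation circles took a like share of all backsplice reads in every library: 1.81% and 1.77% in the KD libraries, against 1.91% and 1.91% in the control libraries. Their summed FPBcirc was 38.5 and 44.9 in the KD libraries, against 47.8 and 51.7 in the controls. Both KD sums lay below both control sums, and the KD to control ratio of the means was 0.838, beside 0.897 for all 45182 circles. With 2 libraries a group, an exact permutation test cannot give a p below 0.333, so sums carry no test.

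Most of these circles were rare. At least 1 read was seen for 600 and 360 of the 838 circles in the KD libraries and for 172 and 183 in the control libraries, an order that follows depth. Expected at the depth of the shallowest library, the numbers were 254 and 252 in the KD libraries and 172 and 181 in the controls. Over all circles of the series they were 13652 and 13810 in the KD libraries and 8357 and 8475 in the controls. The remaining gap is therefore not particular to these circles. Reads in all 4 libraries were found for 51 circles (6.09%, beside 5.79% of all circles), in KD libraries alone for 546 (65.2%, beside 69.6%) and in control libraries alone for 94 (11.2%, beside 9.75%). For 194 circles the whole evidence was 1 read.

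Their genomic span, which includes introns, ran from 103 to 337959 bases with a median of 11265, against 9919.5 over all circles. These hosts gave many alternative circles: a median of 6 per host, beside 3 over all hosts. Of the 838 circles, 90 (10.7%) shared neither end with another circle of the same host, beside 18.0% of all circles. SMARCC1, a core scaffold of SWI/SNF complexes, gave 59 circles, the most of any host here. CHD2 gave 56, BPTF 48, ATRX 45, INO80 33, and ARID4B and EP400 31 each. Hosts differed in how far a single circle dominated. By mean FPBcirc over the 4 libraries, which sets every order of abundance given here, the most abundant circle held 95.1% of the summed backsplice signal of ARID1A, 89.0% of BAZ2A, 87.3% of CREBBP and 83.8% of CHAF1B. In SMARCC1 and CHD2 it held 16.8% and 11.7%.

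Groups were compared with limma on log2(value + pseudocount), fitted on all circles with a mean of at least 0.174 FPB over the 4 libraries and adjusted over all of them (Benjamini-Hochberg, two-sided, threshold 0.05). Of the 838 circles, 45 (5.37%) passed this filter, from 23 hosts, the same share as the 5.37% of all circles. The last circle inside was an RSF1 circle (chr11:77675036-77693611, mean 0.176 FPB) and the first outside a CHD7 circle (chr8:60816387-60842052, mean 0.174 FPB). A circle can pass through 1 group alone, so counts over these 45 describe them and support nothing further.

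None of the 45 circles passed the threshold in either direction. Across all 2427 tested circles, 0.0824% were called higher in the KD libraries and 0.453% lower. The smallest adjusted p among the 45 was 0.0649 (limma). At an unadjusted p under 0.05, 6 of the 45 were higher (13.3%, beside 5.11% of all tested) and 9 lower (20.0%, beside 14.0%). Both KD libraries lay above both controls for 9 (20.0%, beside 16.2%) and below both for 23 (51.1%, beside 38.4%). The fitted value was higher in the KD group for 16 (35.6%, beside 40.4%). The median log2 fold change was -0.85, against -0.33 for all tested circles. Centring each library on its own median moved the median of all circles to 0.17 and that of the 45 to -0.36.

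The KD libraries differed from each other by a median of 1.28-fold over the 43 tested circles read in both, and the shallower control libraries by 1.70-fold over the 35 read in both. Across the 45 circles, log2 FPBcirc of the KD libraries correlated at r = 0.832 and of the control libraries at r = 0.447, a description across circles that share libraries. Leaving out a library moved the median log2 fold change of the 45 between -0.53 and -1.20, and that of all tested circles between -0.14 and -0.49. The median of the 45 was -1.20, against -0.49 for all tested, without control replicate 1. Without control replicate 2 it was -0.58, against -0.42. In fits that leave 1 library in a group, that library is assumed to vary as the other pair does. On the recovered reads, edgeR called 0 and 0, whereas DESeq2 called 6 higher and 1 lower.

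**Figure D1:**
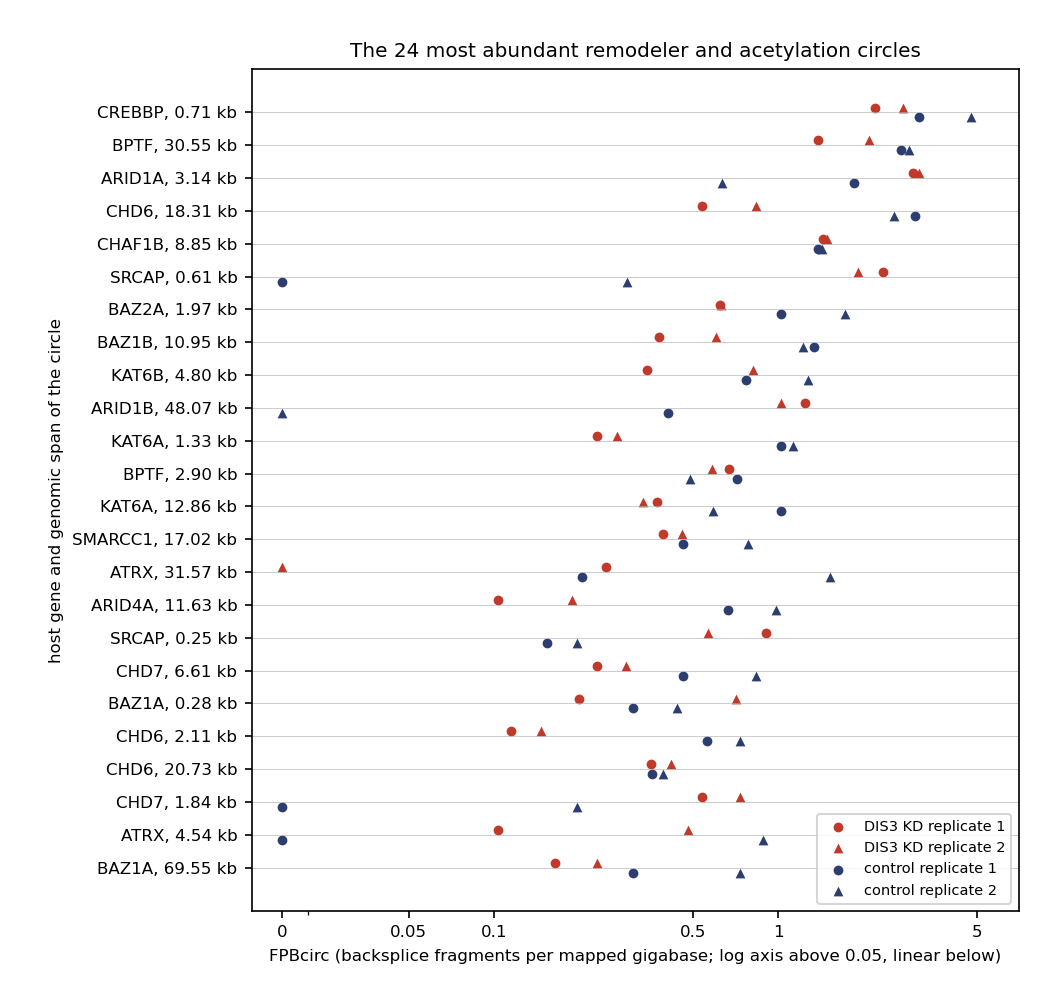
Level of the 24 most abundant tested circles in each library (x axis: FPBcirc, logarithmic above 0.05 and linear below it; y axis: host gene and genomic span, most abundant at the top). Red points are the DIS3 KD libraries and blue points the control libraries, circles for replicate 1 and triangles for replicate 2; the CREBBP circle lies between 2.19 and 4.75 FPB, and the first SRCAP circle reached 2.33 FPB in KD replicate 1 and 0 in control replicate 1.

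The most abundant circle by that mean, though not in either KD library alone, came from CREBBP, the acetyltransferase that serves as a coactivator of many transcription factors (chr16:3850297-3851009). It had 2.19 and 2.75 FPB in the KD libraries (362 and 132 reads), against 3.12 and 4.75 FPB in the control libraries (61 and 97 reads). The KD values lay below the controls without overlap, at a log2 fold change of -0.64 ± 0.33 (SE) and an adjusted p of 0.312 (limma). With library centring the log2 fold change was -0.15. The linear signal of CREBBP, 8.25 and 8.52 FPB in the KD libraries against 4.80 and 6.81 FPB in the controls, was in the opposite order.

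CHD6, a chromodomain helicase, gave the circle with the smallest p (chr20:41533050-41551360). It had 0.538 and 0.835 FPB in the KD libraries (89 and 40 reads), against 3.02 and 2.54 FPB in the control libraries (59 and 52 reads). Both control values were more than 3 times either KD value, with a log2 fold change of -1.99 ± 0.37 and an adjusted p of 0.0649 (limma). Over the other settings the adjusted p ran from 0.000149 to 0.614.

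The 4 tested CHD6 circles share their ends in a chain, so they can be compared within the gene. The circle from 41512846 to 41514952 had 0.115 and 0.146 FPB in the KD libraries, against 0.563 and 0.734 FPB in the controls (log2 fold change -2.04, adjusted p 0.136, limma). The circle from 41533050 to 41533570 had 0.0302 and 0.146 FPB in the KD libraries, against 0.460 and 0.245 FPB in the controls (log2 fold change -1.78). Both, like the leading circle, lay lower in both KD libraries. The circle that joins the first start to the second end, 41512846 to 41533570, had 0.357 and 0.417 FPB in the KD libraries, against 0.358 and 0.391 FPB in the controls, values that overlap. The leading circle made up 39.0% and 44.0% of all CHD6 backsplice signal in the KD libraries, against 57.3% and 65.0% in the controls. Linear CHD6 RNA was 8.05 and 8.99 FPB in the KD libraries, against 7.38 and 7.74 FPB in the controls, and did not pass the test.

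**Figure D2:**
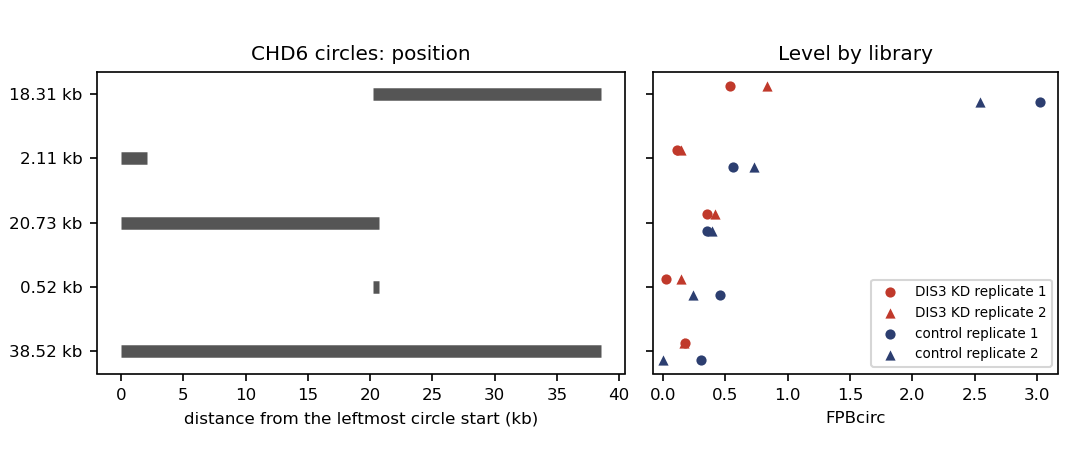
The 5 most abundant CHD6 circles: left, genomic extent of each (x axis: distance from the leftmost circle start in kb); right, FPBcirc in each library, with DIS3 KD points in red and control points in blue. The 18.31 kb circle at the top separates the groups (0.538 and 0.835 against 3.02 and 2.54 FPB), and the 20.73 kb circle does not (0.357 and 0.417 against 0.358 and 0.391 FPB).

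Other CHD circles went both ways. CHD7, the remodeler mutated in CHARGE syndrome, had a circle at chr8:60741259-60743097 with 0.538 and 0.730 FPB in the KD libraries (89 and 35 reads), against 0 and 0.196 FPB in the controls (0 and 4 reads). Its KD values were the higher ones, with a log2 fold change of 2.88 and an adjusted p of 0.189 (limma). That log2 fold change was 1.52 without control replicate 1 and 4.25 without control replicate 2. A longer CHD7 circle from the same start, ending at 60781430, had 0.103 and 0.104 FPB in the KD libraries, against 0.153 and 0.489 FPB in the controls. CHD2, with 56 circles, had a single tested one (chr15:92924321-92956649) at 0.187 and 0.376 FPB in the KD libraries and 0 and 0.294 FPB in the controls, so the groups overlapped.

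ARID1A encodes the DNA-binding subunit of the canonical SWI/SNF complex, and its circle (chr1:26729651-26732792) ranked next after those of CREBBP and BPTF by the mean over the 4 libraries and above both in each KD library. It had 2.97 and 3.13 FPB in the KD libraries (492 and 150 reads), against 1.84 and 0.636 FPB in the control libraries (36 and 13 reads). The KD values were higher without overlap, but the controls differed from each other by more than the KD libraries did. The log2 fold change was 1.46 ± 0.50 with an adjusted p of 0.183 (limma), and 0.72 without control replicate 2.

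Its paralog ARID1B, which takes the same place in the complex, had a circle at chr6:157036835-157084905 with 1.25 and 1.02 FPB in the KD libraries (206 and 49 reads). The control libraries had 0.409 and 0 FPB (8 and 0 reads). Again the KD libraries were higher (log2 fold change 3.22, adjusted p 0.184, limma), and the value ran from 1.39 to 5.06 depending on which control was left out.

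SMARCC1 spread its signal over many circles. The circle at chr3:47661294-47678311 had 0.393 and 0.459 FPB in the KD libraries, against 0.460 and 0.783 FPB in the controls. A longer one that ends at the same base, from 47638725, had 0.0242 and 0.0626 FPB in the KD libraries (4 and 3 reads), against 0.460 and 0.440 FPB in the controls (9 and 9 reads). That was the most negative log2 fold change of the 45, -2.68, with an adjusted p of 0.216 (limma), and it rests on few reads. Summed over all 59 SMARCC1 circles the groups overlapped, at 2.88 and 3.38 FPB in the KD libraries and 2.81 and 3.42 FPB in the controls.

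SRCAP is the ATPase that exchanges H2A for the variant H2A.Z, and 2 of its circles were high in the KD libraries. The circle at chr16:30728966-30729572 had 2.33 and 1.90 FPB in the KD libraries (385 and 91 reads), against 0 and 0.294 FPB in the controls (0 and 6 reads). Its log2 fold change of 4.32 ± 0.97 was the most positive of the 45, with an adjusted p of 0.091 (limma) that ranged from 7.16e-06 to 0.764 over the other settings. The log2 fold change was 2.70 without control replicate 1 and 5.94 without control replicate 2. A second, short circle at chr16:30704064-30704315 had 0.907 and 0.564 FPB in the KD libraries (150 and 27 reads), against 0.153 and 0.196 FPB in the controls (3 and 4 reads). Its groups did not overlap either (log2 fold change 1.85, adjusted p 0.146, limma). One more, which also starts at 30728966 and ends at 30734008, had 0.375 and 0.292 FPB in the KD libraries and 0.409 and 0.196 FPB in the controls, values that overlap. INO80 and EP400, the other ATPases of this group, gave 33 and 31 circles and none that was tested.

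Among the ISWI and BAZ genes, BPTF, the largest subunit of the NURF remodeler, gave the circle next to that of CREBBP by the mean over the 4 libraries (chr17:67945409-67975958). It had 1.38 and 2.09 FPB in the KD libraries (228 and 100 reads), against 2.71 and 2.89 FPB in the controls (53 and 59 reads), at a log2 fold change of -0.71 and an adjusted p of 0.287 (limma). The groups did not overlap in FPBcirc, with the KD libraries lower, but the log2 fold change was -0.22 with library centring, -0.06 with edgeR and -0.07 with DESeq2. A shorter circle from the same start, ending at 67948306, had 0.671 and 0.584 FPB in the KD libraries and 0.716 and 0.489 FPB in the controls, so it overlapped. BAZ2A, a subunit of the nucleolar remodeling complex that silences ribosomal DNA, had a circle at chr12:56603359-56605327 with 0.623 and 0.626 FPB in the KD libraries, against 1.02 and 1.71 FPB in the controls (log2 fold change -1.04, adjusted p 0.227, limma).

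BAZ1B, the Williams syndrome transcription factor, had 4 tested circles that end at the same base, 73470483 on chromosome 7. The longest, from 73459536, had 0.381 and 0.605 FPB in the KD libraries, against 1.33 and 1.22 FPB in the controls (log2 fold change -1.34, adjusted p 0.148, limma). The circle from 73465439 had 0.0786 and 0.0835 FPB in the KD libraries, against 0.614 and 0.440 FPB in the controls (log2 fold change -2.26). Both were lower in both KD libraries. The circle from 73462922 had 0.0846 and 0.167 FPB in the KD libraries, against 0.102 and 0.587 FPB in the controls, values that overlap (log2 fold change -0.91). The shortest, from 73469517, was in the opposite order, with 0.363 and 0.355 FPB in the KD libraries (60 and 17 reads), against 0 and 0.0978 FPB in the controls (0 and 2 reads). It made up 23.5% and 18.3% of BAZ1B backsplice signal in the KD libraries, against 0% and 3.17% in the controls. No test of the difference between circles of a gene was made.

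BAZ1A, the ACF subunit, showed a like layout with 3 tested circles ending at 34862322 on chromosome 14. The shortest, from 34862044, had 0.199 and 0.710 FPB in the KD libraries and 0.307 and 0.440 FPB in the controls, values that overlap. The circle from 34826013 had 0.0665 and 0.146 FPB in the KD libraries, against 0.358 and 0.440 FPB in the controls. The longest, from 34792775, had 0.163 and 0.230 FPB in the KD libraries, against 0.307 and 0.734 FPB in the controls. Both longer circles were lower in both KD libraries and did not pass the test. In all, 26 of the 45 tested circles shared an end with another tested circle of their host, in 10 hosts.

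**Figure D3:**
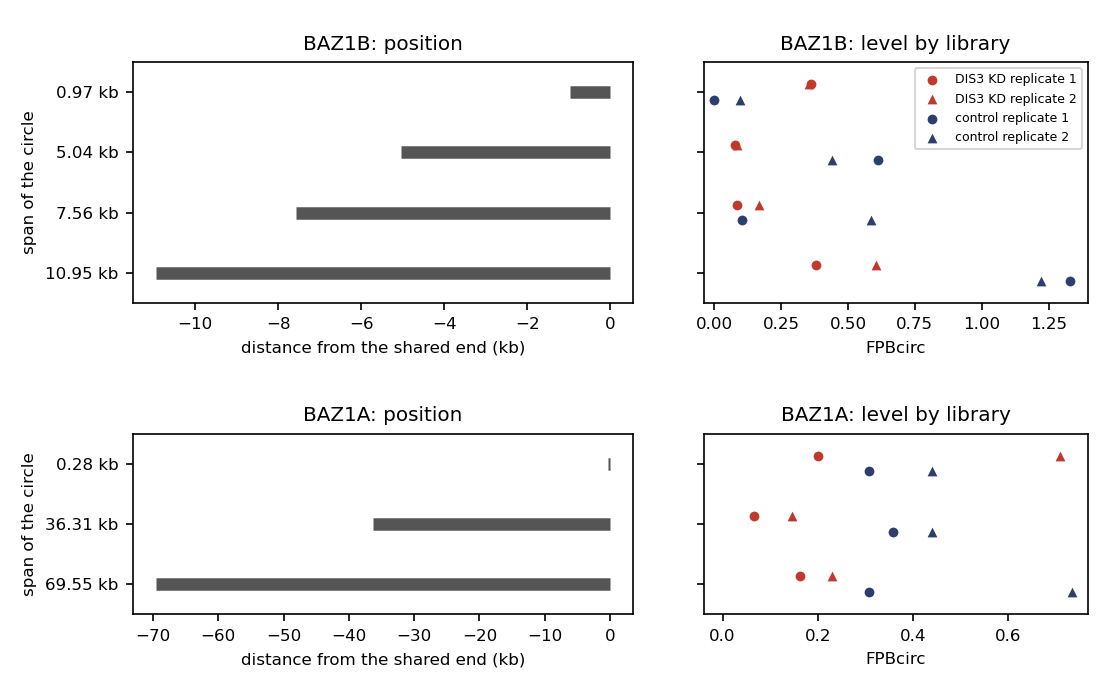
Tested circles of BAZ1B (top) and BAZ1A (bottom) that share an end: left, extent of each circle (x axis: distance from the shared end in kb); right, FPBcirc in each library, with DIS3 KD points in red and control points in blue. The 0.97 kb BAZ1B circle is higher in the KD libraries (0.363 and 0.355 against 0 and 0.0978 FPB), while the 10.95 kb circle is lower (0.381 and 0.605 against 1.33 and 1.22 FPB).

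KAT6A and KAT6B are the catalytic subunits of paired acetyltransferase complexes. The most abundant KAT6A circle by the mean over the 4 libraries (chr8:42048378-42049707) had 0.230 and 0.271 FPB in the KD libraries (38 and 13 reads), against 1.02 and 1.13 FPB in the controls (20 and 23 reads). The replicates lay close together in both groups and far apart between them, with a log2 fold change of -1.96 ± 0.44 and an adjusted p of 0.091 (limma). The other tested KAT6A circles, which share the start 41974704, went both ways. Their log2 fold changes were -1.06 for the one ending at 41987563 and 0.47 for the one ending at 41981954. The KAT6B circle (chr10:74838683-74843478) had 0.344 and 0.814 FPB in the KD libraries, against 0.767 and 1.27 FPB in the controls, and the groups overlapped. EP300, the paralog of CREBBP, gave 30 circles and none that was tested.

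Deacetylases gave few circles, 47 from 10 hosts, and 1 was tested. That circle came from HDAC4, a class IIa deacetylase that shuttles between nucleus and cytoplasm (chr2:239236593-239352918). It had 0.127 and 0 FPB in the KD libraries (21 and 0 reads), against 0.614 and 0.196 FPB in the controls (12 and 4 reads). The KD libraries were lower, yet they disagreed with each other, and the adjusted p was 0.369 (limma). HDAC1 had a circle at chr1:32326939-32327677 with 0.109 and 0.376 FPB in the KD libraries (18 and 18 reads) and 0 and 0 reads in the controls. At the unlike depth of the KD libraries, equal reads stand for levels that differ.

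CHAF1A and CHAF1B are subunits of CAF-1, which deposits histones behind the replication fork. The CHAF1B circle (chr21:36402758-36411604) had 1.44 and 1.48 FPB in the KD libraries and 1.38 and 1.42 FPB in the controls (log2 fold change 0.06 ± 0.33). It was 0.55 with library centring, 0.74 with edgeR and 0.74 with DESeq2, so its place near 0 holds on the FPB scale alone. The CHAF1A circle (chr19:4405912-4409759) had 0.592 and 0.584 FPB in the KD libraries (98 and 28 reads), and no read in either control library. Against the limit that 0 reads allow (3 counts over both control libraries, 0.0750 FPB, counting error only), it was at least 7.87-fold higher in the KD libraries, with an adjusted p of 0.173 (limma). In all, 24 circles had reads in both KD libraries, none in the controls, and a pooled KD level above that limit (2.86%, beside 2.40% of all circles). In both controls and in neither KD library, 2 circles were read, from BAZ1B and SMARCC1, with 2 and 2 reads each (0.239%, beside 0.345% of all circles).

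ARID4A, a retinoblastoma-binding subunit of the Sin3 deacetylase complex, had 1 tested circle (chr14:58318542-58330169). It had 0.103 and 0.188 FPB in the KD libraries (17 and 9 reads), against 0.665 and 0.978 FPB in the controls (13 and 20 reads). The KD values lay lower without overlap (log2 fold change -2.27, adjusted p 0.107, limma). ATRX, a heterochromatin helicase, had a circle (chrX:77633207-77664778) with 0.248 and 0 FPB in the KD libraries and 0.205 and 1.52 FPB in the controls, so replicates differed within both groups.

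Summed by family, all circles included, the order of KD and control libraries differed between families. SWI/SNF circles summed to 9.97 and 10.0 FPB in the KD libraries, against 6.80 and 5.87 FPB in the controls, a ratio of means of 1.58. The INO80, SRCAP and EP400 group summed to 5.69 and 4.93 FPB in the KD libraries, against 2.61 and 2.74 FPB in the controls, a ratio of 1.99. These 2 families and the histone chaperones (3.22 and 3.32 FPB in the KD libraries, 2.61 and 2.64 FPB in the controls, ratio 1.25) were higher in both KD libraries. Without the leading circle of each family the 3 ratios were 1.36, 1.26 and 1.48. Single hosts weighed on these sums. SRCAP circles summed to 4.15 and 3.49 FPB in the KD libraries, against 1.02 and 0.929 FPB in the controls. INO80 and EP400 sums overlapped. CHAF1A circles summed to 1.19 and 1.34 FPB, against 0 and 0.0489 FPB. CHAF1B sums overlapped, and those of SUPT16H and ANP32E were lower in both KD libraries. In SWI/SNF, ARID1A (3.13 and 3.21 against 2.05 and 0.636 FPB) and ARID1B (2.03 and 1.73 against 0.511 and 0.391 FPB) were higher. SMARCC1 overlapped.

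CHD circles summed to 4.35 and 5.97 FPB in the KD libraries, against 10.9 and 10.4 FPB in the controls, a ratio of 0.483. ISWI and BAZ circles summed to 7.17 and 9.70 FPB in the KD libraries, against 10.4 and 13.3 FPB in the controls, a ratio of 0.714. Acetyltransferase circles summed to 5.16 and 6.47 FPB in the KD libraries, against 8.18 and 10.0 FPB in the controls, a ratio of 0.638. In these 3 families, in the other SNF2 helicases (ratio 0.491) and in the other ARID proteins (ratio 0.531), both KD sums lay below both control sums. Without the leading circle the 5 ratios were 0.566, 0.743, 0.646, 0.602 and 0.834. The other ARID sums then overlapped, at 0.683 and 0.918 FPB in the KD libraries and 1.43 and 0.489 FPB in the controls. Deacetylase sums overlapped, at 1.04 and 0.981 FPB in the KD libraries and 1.43 and 0.881 FPB in the controls, and their ratio of 0.874 turned to 1.26 without the HDAC4 circle and to 1.15 without control replicate 1. The differences between families were not tested.

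**Figure D4:**
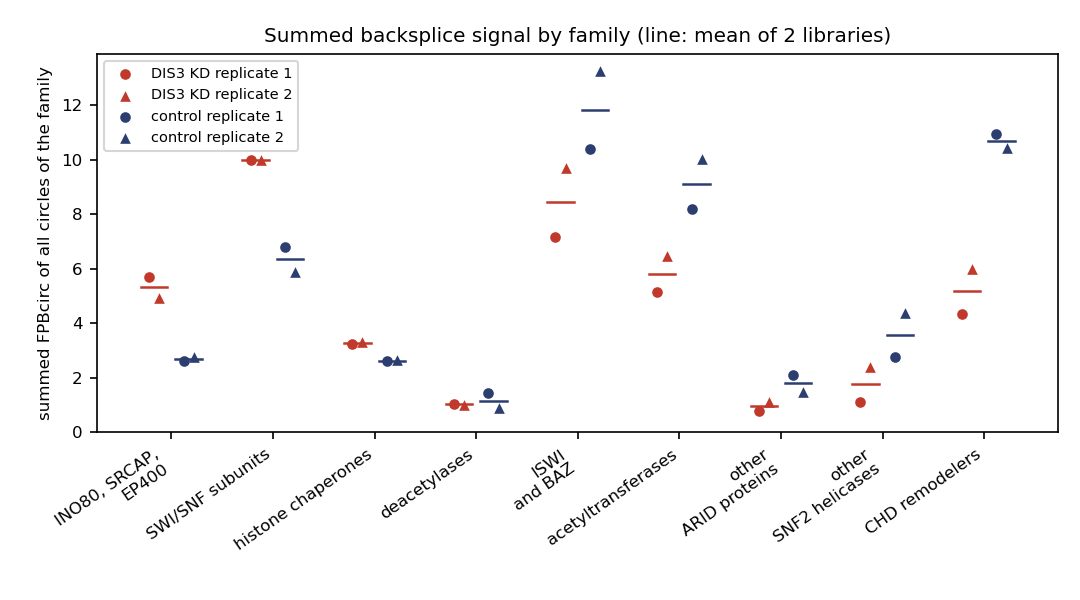
Summed FPBcirc of all circles of each family in each library (y axis from 0; points are libraries, lines the mean of 2), with DIS3 KD in red to the left of control in blue and families ordered by the KD to control ratio. The INO80, SRCAP and EP400 group stands at a ratio of 1.99 at the left and the CHD remodelers at 0.483 at the right.

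The deposited CIRCscore sets each circle against the linear RNA of its host. It was tested for the 33 of these circles, from 18 hosts, with a value in all 4 libraries, out of 1823. Circles with 0 reads in any library were left out, most of them higher in level in the KD libraries. Among them were leading circles of SRCAP (log2 fold change of level 4.32) and ARID1B (3.22), but also of ATRX (-2.62) and HDAC4 (-2.36). The directions and the median given here thus describe the 33 alone and lean lower by this filter. The shares over all tested circles passed the same filter. None passed in either direction, beside 0.0% called higher and 0.11% called lower over all tested. At an unadjusted p under 0.05, 1 was higher (3.03%, beside 2.96%) and 11 lower (33.3%, beside 17.9%). Both KD values lay below both controls for 21 (63.6%, beside 42.6%) and above them for 1 (3.03%, beside 11.6%). The fitted value was higher in the KD group for 5 (15.2%, beside 29.5%). The median log2 fold change was -0.84, against -0.42 over all tested. Library centring left 5 lower before adjustment, a count not taken over all circles. It gave a median of -0.35, against 0.06 over all tested. Without control replicate 1 the median was -0.91, against -0.41 over all tested. Without control replicate 2 it was -0.77, against -0.45.

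The CREBBP circle had a CIRCscore of 0.266 and 0.324 in the KD libraries, against 0.651 and 0.697 in the controls. That is a log2 fold change of -1.19 ± 0.35 with an adjusted p of 0.172 (limma), larger than the -0.64 of its level. The leading CHD6 circle had 0.0680 and 0.0938 in the KD libraries, against 0.409 and 0.329 in the controls (log2 fold change -2.14, adjusted p 0.142, limma). The KAT6A circle had 0.0270 and 0.0258 in the KD libraries, against 0.113 and 0.109 in the controls (log2 fold change -1.90, adjusted p 0.142, limma). In each of the 3 the groups stood apart, with the KD libraries lower. The 1 circle with both KD values above both controls was the short SRCAP circle, at 0.0284 and 0.0202 in the KD libraries and 0.00772 and 0.00761 in the controls (log2 fold change 1.23, adjusted p 0.192, limma). The ARID1A circle, higher in level, had 0.218 and 0.238 in the KD libraries and 0.245 and 0.0654 in the controls, so its CIRCscore overlapped.

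Linear host RNA, in fragments per mapped gigabase (FPBlinear), was derived from each level and its CIRCscore and tested once per host with a value in all 4 libraries. Of the 39 hosts tested, 3 rose (7.69%, beside 11.3% of all 2547 hosts) and 11 fell (28.2%, beside 24.3%) in DIS3 KD (limma, adjusted p under 0.05). At an unadjusted p under 0.05, 6 were higher (15.4%, beside 14.3%) and 12 lower (30.8%, beside 30.1%). Both KD values lay above both controls in 12 (30.8%, beside 25.6%) and below both in 18 (46.2%, beside 45.1%), and the fitted value was higher in 13 (33.3%, beside 38.1%). The median log2 fold change was -0.24, against -0.17 for all hosts. All 3 that rose encode SWI/SNF subunits, out of 8 tested in that family, where none passed the threshold as a fall. Of these 8, both KD values lay above both controls in 4 and below both in 3 (SMARCC1, PBRM1 and SMARCB1). With centring, 5 of the 9 called higher came from other families (BAZ2A, CHAF1B, CREBBP, EP400 and RSF1), and without KD replicate 2, 2 of 5 (EP400 and HDAC4). The 11 that fell came from CHD genes (2 of 6), ISWI and BAZ genes (2 of 7), histone chaperones (2 of 3), other ARID proteins (2 of 2), other SNF2 helicases (2 of 3) and deacetylases (1 of 2). None of 4 acetyltransferases and none of 4 hosts of the INO80, SRCAP and EP400 group passed in either direction.

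ANP32E, the chaperone that strips H2A.Z from chromatin, had 13.6 and 22.7 FPB of linear RNA in the KD libraries, against 82.2 and 97.1 FPB in the controls. This was the largest fall of the 39 (log2 fold change -2.27 ± 0.26, adjusted p 8.51e-16, limma). HDAC2, a class I deacetylase of the Sin3 and NuRD complexes, had 17.2 and 26.7 FPB in the KD libraries, against 61.4 and 65.4 FPB in the controls. It fell by 1.51 on the log2 scale (adjusted p 2.85e-07, limma), with the groups far apart. How reads shared with close paralogs of these genes were assigned is not stated in the labels.

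CHD1, a remodeler of transcribed genes, had 5.47 and 7.57 FPB in the KD libraries, against 17.1 and 18.3 FPB in the controls, and fell by 1.31 on the log2 scale (adjusted p 9.45e-07, limma). Its 2 tested circles were also lower in both KD libraries: the one at chr5:98879552-98881375 had 0.0786 and 0.0626 FPB in the KD libraries, against 1.02 and 0.196 FPB in the controls. For the other, at chr5:98868495-98872555, that order rests on few reads. It made up 6.25% of CHD1 backsplice signal in control replicate 2, where all CHD1 circles together had 16 reads. ARID4A had 2.12 and 2.94 FPB of linear RNA in the KD libraries, against 6.33 and 6.44 FPB in the controls, and fell by 1.04 (adjusted p 1.25e-05, limma). BAZ2B, a bromodomain partner of ISWI, had 1.08 and 1.44 FPB in the KD libraries, against 3.12 and 3.22 FPB in the controls, and fell by 0.84 (adjusted p 1.64e-05, limma). In these 3 genes no KD value came near a control value.

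The other 6 falls did not pass in every fit with a library left out. HELLS, a helicase needed for DNA methylation, had 14.4 and 17.4 FPB in the KD libraries, against 34.5 and 30.4 FPB in the controls (log2 fold change -0.98, adjusted p 0.00101, limma). SUPT16H, a subunit of the chaperone FACT, had 26.4 and 38.3 FPB in the KD libraries, against 50.8 and 59.6 FPB in the controls (log2 fold change -0.77). The helicase SMARCAD1 (-0.75), CHD9 (-0.74), the ISWI ATPase SMARCA1 (-0.58) and ARID4B (-0.57) completed the falls, with log2 fold changes as given and no overlap between groups.

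Among the 3 that rose, ARID1B had 7.38 and 7.68 FPB in the KD libraries, against 3.35 and 4.28 FPB in the controls (log2 fold change 0.81 ± 0.22, adjusted p 0.00156, limma). SMARCA4, the ATPase of SWI/SNF complexes also called BRG1, had 41.0 and 31.9 FPB in the KD libraries, against 18.5 and 24.8 FPB in the controls (log2 fold change 0.73, adjusted p 0.0193, limma). ARID1A had 13.7 and 13.2 FPB in the KD libraries, against 7.53 and 9.87 FPB in the controls (log2 fold change 0.58, adjusted p 0.0416, limma). The KD libraries were higher without overlap in each.

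Only 5 of these 14 calls, ANP32E, HDAC2, CHD1, ARID4A and BAZ2B, passed whichever library was left out. Without control replicate 1 the median log2 fold change of the 39 was -0.30, against -0.23 for all hosts. Without control replicate 2 it was -0.13, against -0.10. Without KD replicate 1 it was -0.11, against -0.05, and without KD replicate 2 it was -0.34, against -0.28. Library median centring, which moved the median of all hosts to -0.01, called 9 higher and 12 lower. Over all 2547 hosts it called 552 higher and 583 lower.

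**Figure D5:**
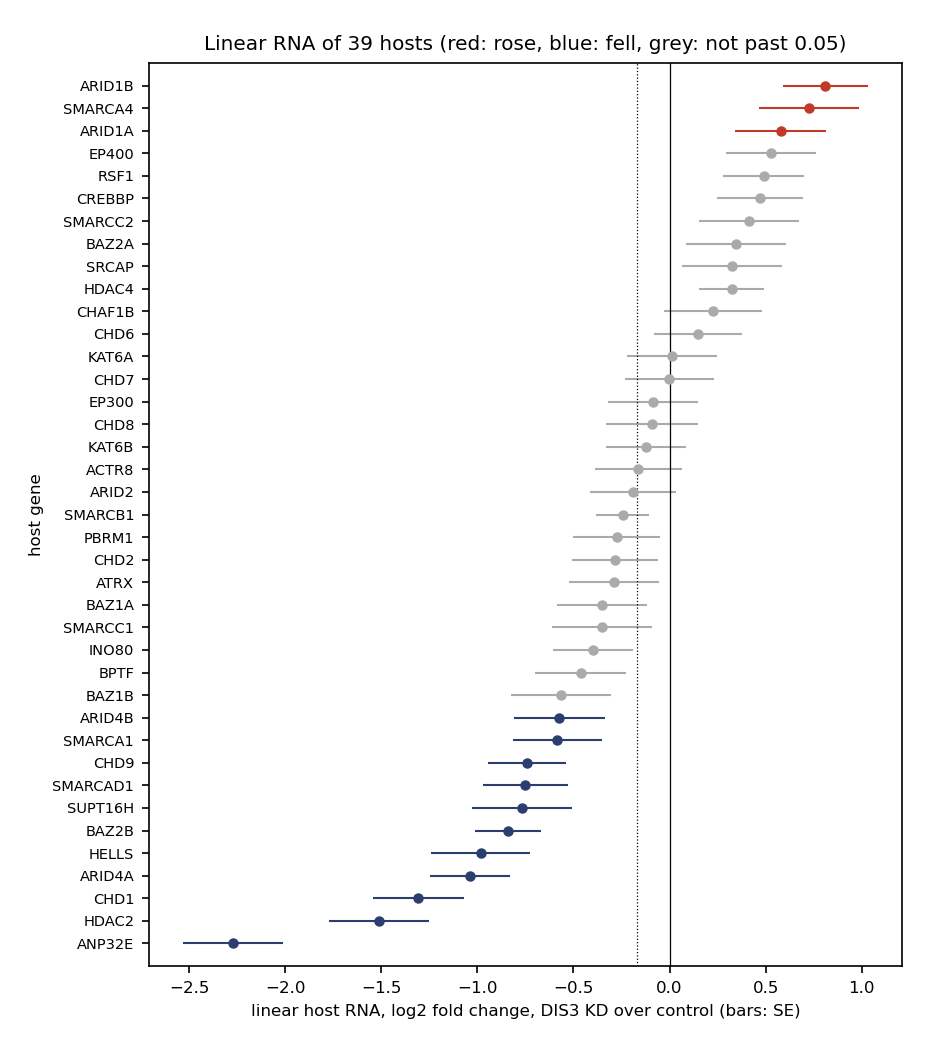
Log2 fold change of linear RNA (DIS3 KD over control, x axis; bars are SE from limma) for the 39 tested hosts (y axis). Red hosts rose, blue hosts fell, grey hosts did not pass, and the dotted line marks the median of all 2547 hosts at -0.17; ARID1B stands at 0.81 and ANP32E at -2.27.

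RefSeq promoters (GRCh38.p14, 300 bases around the gene start) were at hand for 54 of the 69 hosts. Those of 3 genes whose linear RNA fell whichever library was left out and of 1 that rose are shown, to set their base composition side by side. Capitals mark the GC box GGGCGG and the CCAAT box CCAAT on either strand. No GC box overlaps a CCAAT box in these 4, and the longest run of capitals in CHD1 is a pair of GC boxes that share a base. The 4 regions are chr6:113971099-113971398 (minus strand) for HDAC2, chr5:98928958-98929257 (minus strand) for CHD1, chr14:58298305-58298604 (plus strand) for ARID4A and chr1:26695765-26696064 (plus strand) for ARID1A.
HDAC2 promoter: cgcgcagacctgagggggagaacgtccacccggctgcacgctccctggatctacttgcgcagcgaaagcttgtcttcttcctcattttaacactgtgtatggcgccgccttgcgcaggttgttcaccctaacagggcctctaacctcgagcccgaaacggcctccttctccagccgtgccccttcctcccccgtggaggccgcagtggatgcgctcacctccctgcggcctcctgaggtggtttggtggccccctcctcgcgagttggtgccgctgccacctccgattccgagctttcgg
CHD1 promoter: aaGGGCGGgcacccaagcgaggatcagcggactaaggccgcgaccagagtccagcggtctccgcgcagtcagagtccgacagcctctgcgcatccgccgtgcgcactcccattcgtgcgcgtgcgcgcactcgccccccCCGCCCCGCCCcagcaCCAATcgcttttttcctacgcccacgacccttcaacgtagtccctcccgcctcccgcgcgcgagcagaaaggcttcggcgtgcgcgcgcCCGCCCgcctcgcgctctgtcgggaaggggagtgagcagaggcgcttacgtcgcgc
ARID4A promoter: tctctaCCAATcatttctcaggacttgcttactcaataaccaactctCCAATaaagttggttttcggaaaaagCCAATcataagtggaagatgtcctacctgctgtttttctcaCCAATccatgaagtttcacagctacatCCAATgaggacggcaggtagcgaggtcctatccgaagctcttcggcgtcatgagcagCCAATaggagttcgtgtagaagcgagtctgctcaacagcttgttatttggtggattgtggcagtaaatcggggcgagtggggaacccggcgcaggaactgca
ARID1A promoter: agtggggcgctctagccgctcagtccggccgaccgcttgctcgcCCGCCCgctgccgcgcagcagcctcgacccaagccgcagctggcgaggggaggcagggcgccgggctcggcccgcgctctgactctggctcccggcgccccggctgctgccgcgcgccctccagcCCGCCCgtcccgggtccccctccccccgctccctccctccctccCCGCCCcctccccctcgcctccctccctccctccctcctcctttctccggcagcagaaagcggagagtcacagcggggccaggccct

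Of 34796 distinct promoters of that length, 44.9% held the GC box and 34.6% the CCAAT box. ARID4A held 6 CCAAT boxes, a number reached by 0.121% of promoters, and no GC box, at 48% G and C. CHD1 held 4 GC boxes and 1 CCAAT box at 70.7%, ARID1A held 3 GC boxes at 78%, and HDAC2 held neither at 64%. These matches describe the letters alone, and the motifs were chosen with the expression results known.

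In each host set beside its circles, level and linear RNA come from the same 4 libraries and share their controls, so their likeness is not read as a result. For SRCAP, linear RNA was 32.2 and 28.4 FPB in the KD libraries, against 21.2 and 27.0 FPB in the controls (log2 fold change 0.33, not past the threshold), beside 4.32 for the circle from 30728966 to 30729572. For KAT6A, linear RNA was 8.88 and 10.9 FPB in the KD libraries, against 9.15 and 10.4 FPB in the controls (log2 fold change 0.01), beside -1.96 for the circle from 42048378. For BPTF, linear RNA was 9.55 and 11.5 FPB in the KD libraries, against 14.1 and 15.8 FPB in the controls (log2 fold change -0.46), beside -0.71 for its leading circle.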

How the data were processed

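Ribosomal-RNA-depleted total RNA was sequenced from 2 DIS3 KD and 2 control libraries, with a strand-keeping kit per the labels' protocols. The submitters' processing notes name bcl2fastq 2.20, Bowtie2 2.3.5 and the build hg38; no circRNA caller is named in the labels. The deposited FPBcirc is a signal, backsplice fragments per mapped gigabase, per the file headers. A CIRCscore, as deposited, is a ratio of that signal to the linear signal of the host. The authors' fold change is a ratio of group means and was not used for any result. Positions are those of the deposited tables, counted from 1.

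Every nonzero FPBcirc was a whole multiple of the value of 1 read (100% of values within a tolerance of 0.001), so reads were recovered from it. FPBlinear was derived as (FPBcirc + 0.01) / CIRCscore minus 0.01, and it was a single value per host in at least 99.8% of hosts. Before use, 7 lines of the tables had been emptied.

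The main test was two-sided, with limma 3.58.1 (R 4.3.3; trend and robust moderation), on log2(value + pseudocount), which understates the change of low values. Pseudocounts were 0.0349 for FPBcirc (the median value of 1 read), 0.00448 for CIRCscore and 1.16 for FPBlinear (percentile 5 of the values). The filter was a mean of 5 times the FPBcirc pseudocount. P-values were adjusted (Benjamini-Hochberg) over all features tested. The script was tested on simulated data. edgeR 4.0.16 and DESeq2 1.42.0 on recovered reads, other pseudocounts, filters and scalings, the replicate block and leaving out each library were alternatives. Where labels do not give separate cultures, p-values measure the spread between these libraries. Reads carry no molecular identifiers.

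Named circles were the 8 most abundant tested, the 6 of smallest p in each direction for FPBcirc and 4 for CIRCscore. To these were added every host whose linear RNA passed, the leading host and circle of each family, the 6 hosts with most circles and, for the other pathway genes, the 4 hosts of smallest p in each direction. A gene that this rule names is not reported here. Circles that share an end with a named circle, and those with no control read, were chosen after their values were seen. The members and all lists were chosen with earlier results of these data known. Figures were drawn with matplotlib 3.10.9.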

Additional observations from a re-analysis of the deposited data

How the results depend on the processing

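For circle level, limma called 0 higher and 0 lower. A pseudocount 3 times larger called 1 and 1, beside 18 and 26 over all 2427 tested circles. A filter at 15 times the pseudocount called 2 and 3 of 14, beside 28 and 142 over all 739 that passed it. DESeq2 called 6 and 1, beside 173 and 65 over all 2427. Leaving out a library moved the median log2 fold change of the 45 between -0.53 and -1.20. That of all tested circles then moved between -0.14 and -0.49. For CIRCscore, also 0 and 0, the stricter filter called 0 higher and 2 lower of 12, beside 5 and 59 over all 687 that passed it. With the replicate number as a block it was 0 and 0, beside 1 and 8 over all 1823 tested. Leaving out a library moved the median log2 fold change of the 33 between -0.77 and -0.91, and that of all tested between -0.35 and -0.49. For linear RNA, 3 higher and 11 lower, centring called 9 and 12, beside 552 and 583 over all 2547 hosts. Leaving out a library moved the median log2 fold change of the 39 between -0.11 and -0.34, and that of all hosts between -0.05 and -0.28. The same replicate numbers did not deviate together (r = 0.00289 for FPBcirc, 0.0271 for CIRCscore and 0.0652 for FPBlinear), so the number was not taken as a pairing. With it as a block, 3 circles were higher and 1 lower, beside 36 and 98 over all 2427 tested. In linear RNA 6 hosts were then higher, among them CREBBP, EP400 and RSF1, beside 390 over all 2547 hosts. The KD to control ratio of circles read was 2.70, and 1.44 at the depth of the shallowest library. At that depth all circles of the series numbered 13652 and 13810 in the KD libraries, against 8357 and 8475 in the controls. This depth was an alternative chosen after seeing the data. So were the family sums without their leading circle, without a library or as a share of all signal. Some values reversed. The CIRCscore log2 fold change ran from -0.11 (without control replicate 2) to 1.73 for the ARID1A circle, and from -0.17 (without KD replicate 2) to 0.96 for the BAZ1A circle from 34862044, over the libraries left out. Linear EP300 ran from -0.26 to 0.082 (without control replicate 2) and was 0.069 with centring. The deacetylase ratio ran from 0.706 to 1.15 (without control replicate 1) and was 1.26 without its leading circle. The cause was not tested. Over the named results, 567 alternatives were counted as unchanged, 59 brought a value past the threshold, 26 took one back, 7 moved a value and 6 reversed it. For tested values, unchanged meant the same direction and side of the threshold, or no adjusted p for a value not past it. For family sums, which have no threshold, it meant a shift of the ratio smaller than the spread between libraries. Depth limits the rare circles: 1 read was worth 0.0511 and 0.0489 FPB in the control libraries, so a circle below that level could not be seen there.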

Other observations

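Partner genes of these complexes, acetyl-lysine readers and other histone chaperones were read from a list of 137 genes, of which 108 hosted a circle. Linear RNA was tested for 53 of them: 10 rose (18.9%, beside 11.3% of all hosts) and 10 fell (18.9%, beside 24.3%), with a median log2 fold change of -0.02 (limma). Among those that rose was BRWD1, a bromodomain reader, with 6.48 and 7.27 FPB in the KD libraries against 2.67 and 3.05 FPB in the controls. SAP130, of the Sin3 complex, had 6.52 and 6.61 FPB in the KD libraries and 2.57 and 3.59 FPB in the controls. BCL11B, a SWI/SNF partner, had 1.05 and 1.47 FPB in the KD libraries and 0.119 and 0.310 FPB in the controls. In these 3 genes the groups stood apart.

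Among those that fell were the histone chaperones NASP, with 41.3 and 53.1 FPB in the KD libraries against 109 and 127 FPB in the controls, and NAP1L1, with 73.0 and 102 FPB against 201 and 177 FPB. MIER1, a partner of deacetylases, had 2.73 and 4.14 FPB in the KD libraries and 10.2 and 11.4 FPB in the controls. UCHL5, a deubiquitinase found in the INO80 complex, had 11.7 and 18.1 FPB in the KD libraries and 33.7 and 37.3 FPB in the controls. The largest fitted log2 fold changes, with the pseudocount of 1.16 FPB added, were 1.00 for BRWD1 (adjusted p 4.41e-05, limma) and -1.39 for MIER1 (adjusted p 3.57e-08, limma). BCL11B was fitted at 0.81 (adjusted p 2.63e-10, limma). Its control values lay below that pseudocount, which understates its change, so BRWD1 leads on the fitted scale alone. Of the circles of these genes, 52 were tested and none passed in either direction (limma), while 2 were higher (3.85%, beside 5.11% of all tested) and 4 lower (7.69%, beside 14.0%) before adjustment (p under 0.05). Their median log2 fold change was -0.33, as over all tested circles (-0.33).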
